A study of Mus musculus with 4 samples.

Results

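The genes of mitochondrial ribosomal proteins were taken as those whose symbol in the platform annotation starts with Mrpl or Mrps followed by a digit, and which were read by a probe set assigned to a single gene. They numbered 76 of the 18193 genes named in this way on the array, 47 of them named for the large subunit (Mrpl) and 29 for the small subunit (Mrps). Mrpl30 and Mrpl53 were named only on probe sets shared with another gene and were not counted. The RNA was from adrenals of males aged 2 months, 2 samples of wild-type mice and 2 of V1a_KO mice, which lack the V1a vasopressin receptor, with 1 short-oligonucleotide array per sample. The comparison asks how adrenal transcripts differ when this receptor is missing. Neither the strain of the mice nor the part of the receptor gene that was removed is given in the labels. Whether each sample is a different animal is not said in the labels, so the p-values reflect no more than how these samples scatter, which may be technical.

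The mitochondrial ribosome translates the few proteins encoded by mitochondrial DNA, all of them subunits of the respiratory chain and ATP synthase. Its RNAs come from the mitochondrial genome, while all of its proteins are encoded in the nucleus and imported. Some of these proteins descend from bacterial ribosomal proteins and others were added in mitochondria. Cells of the adrenal cortex are rich in mitochondria, which hold the enzymes for the first and last steps of corticosteroid synthesis.

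Values are log2 expression units, in which a difference of 1 is a doubling, and every difference is knockout minus wild type. Tests took in the 17228 of 45037 probe sets with 4 or more log2 units on 2 or more arrays, and each gene is given by its brightest tested probe set, which left 10110 genes. Avpr1a, the targeted receptor gene, read 2.53 and 2.53 (wild type) against 2.53 and 2.60 (knockout) on its brighter probe set, close to the lowest array value of 2.304, so it does not check the labels. The adrenal label was borne out by Star at 14.12 to 14.24 and Cyp11a1 at 13.91 to 14.01, both of the cortex, and by Th at 11.81 to 12.82, of the medulla. Wild-type array 1 stood apart from the rest. It correlated at 0.919 to 0.924 with the other arrays across tested probe sets, which correlated with each other at 0.974 to 0.986. For genes named by a difference on their brightest probe set, the difference without it is given where it departs by more than 1.5 times or turns sign.

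All 76 mitoribosomal genes were measured above the filter, with values from 6.18 to 11.81. On their probe sets the knockout mean was lower than the wild-type mean for 68 genes and higher for 8, a share of 89.5% lower beside 56% of all tested genes. The median difference was -0.22, against -0.05 over all tested genes, and the middle 50% of the members lay between -0.38 and -0.09. Both knockout arrays read below both wild-type arrays in 39 members (51.3%, beside 20.5% of all tested genes) and above them in 6 (7.89%, beside 17.1%). No member passed the adjusted threshold in limma, nor did any other probe set of the array (0%, threshold 0.05), and the smallest adjusted p among the 76 was 0.763. At an unadjusted p under 0.05, limma called 5 members, all lower in the knockout, which is 6.58% of them beside 5.06% of all tested genes (2.93% lower) and 5.14% of all tested probe sets. By this count their share was near the background. In either direction, the groups did not overlap in 45 members, beside 37.7% of all tested genes.

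The size of the shared difference depended on wild-type array 1. Set against each gene's own mean over the 4 arrays, the members had a median of 0.27 on wild-type array 1, -0.02 on wild-type array 2, -0.14 on knockout array 1 and -0.11 on knockout array 2. All tested genes had medians of 0.13, -0.06, -0.03 and -0.02 in the same order. Wild-type array 1 was thus the high array, and it was the highest of the 4 in 54 of the 76 members and in 49.8% of all tested genes. Between the wild-type arrays the members differed by a median of 0.31, more than the median difference between genotypes, while the knockout arrays differed by -0.04. Without wild-type array 1, the median difference of the members was -0.07 beside 0.04 over all tested genes, and 48 members were lower and 28 higher (63.2% lower, beside 43.3% of all tested genes). Without wild-type array 2, the median was -0.38 beside -0.15. Leaving out wild-type array 1, limma called 10 members at an unadjusted p under 0.05 (13.2% of the members, beside 12.1% of all tested genes), and leaving out wild-type array 2 it called 44 (57.9%, beside 38.1%). Leaving out a knockout array, it called 0 members (array 1, beside 0.821% of all tested genes) or 1 (array 2, 1.32% beside 1.10%).

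**Figure D1:**
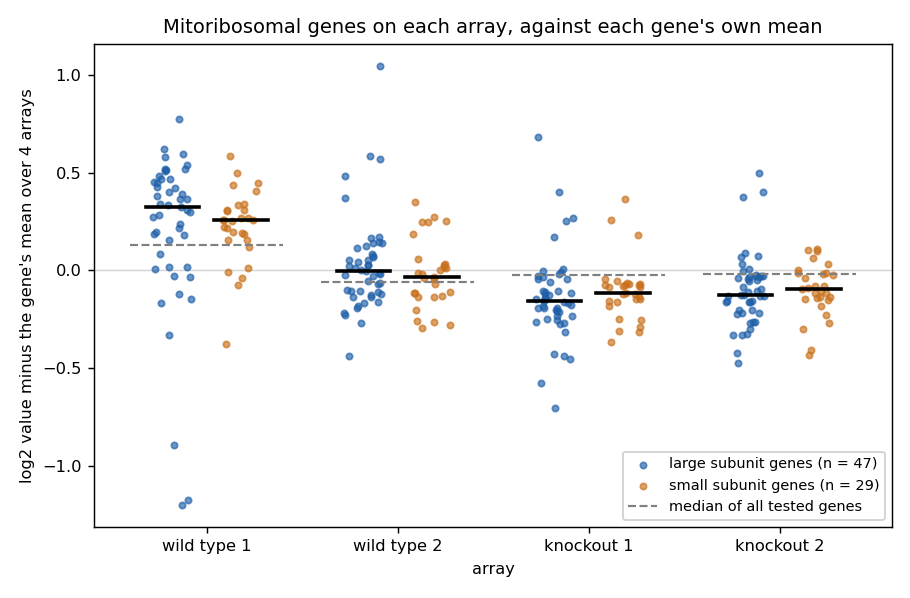
Each point is 1 mitoribosomal gene on 1 array, as its log2 value minus that gene's mean over the 4 arrays, for the 47 large subunit genes (blue) and the 29 small subunit genes (orange). Black bars are medians over the genes of a subunit and dashed lines the medians of all tested genes: the members lie highest on wild-type array 1, with 3 large subunit genes far below the rest there, and below the dashed line on both knockout arrays.

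The members with the smallest unadjusted p were Mrpl20, Mrpl41, Mrps33, Mrpl54 and Mrpl52. Mrpl20, a large subunit protein with a bacterial counterpart, read 10.56 and 10.67 on the wild-type arrays against 9.51 and 9.62 on the knockout arrays. The groups lay apart by far more than their arrays did, with a difference of -1.05 (limma SE 0.16, unadjusted p = 0.00387, adjusted p = 0.763, n = 2 per genotype), a level 2.07 times as high in wild type. Mrpl41, a mitochondrial addition to the large subunit that has also been tied to cell death, read 11.57 and 11.67 against 10.75 and 10.76. Its difference was -0.86 (SE 0.16), and its other tested probe set differed by -0.87. Mrps33, a mitochondrial addition to the small subunit, read 10.98 and 10.88 against 10.16 and 10.10, a difference of -0.80 (SE 0.16). In these 3 genes the wild-type arrays were close together, and without wild-type array 1 the differences were -1.11, -0.91 and -0.75. A small p favours genes with close arrays, so this follows in part from how they were chosen. Mrpl54 read 9.63 and 9.17 (wild type) against 8.56 and 8.68 (knockout), and Mrpl52 read 11.81 and 11.56 against 11.10 and 11.20. Their differences of -0.79 (SE 0.23) and -0.54 (SE 0.18) moved to -0.56 and -0.41 without wild-type array 1. Both are mitochondrial additions to the large subunit. The other tested probe sets of Mrpl52 differed by less, -0.25 and -0.12 (unadjusted p of 0.227 and 0.501 in limma). None of the 5 passed the adjusted threshold in limma, with adjusted p from 0.763 to 0.794.

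Several proteins of the large subunit sit around the tunnel through which the new chain leaves. Mrpl47, one of them, read 7.90 and 9.07 on the wild-type arrays against 7.32 and 7.80 on the knockout arrays. Both knockout arrays lay lower, but the wild-type arrays differed by more than the genotypes did (difference -0.92, SE 0.49, and -1.51 without wild-type array 1). Mrpl23 read 10.63 and 9.84 against 9.42 and 9.52, a difference of -0.76 (SE 0.33) that was -0.36 without wild-type array 1. Mrpl22 read 10.33 and 10.20 against 9.95 and 10.10, with both knockout arrays lower by a small step (difference -0.24, SE 0.17). Mrpl24 read 11.73 and 11.06 against 11.22 and 11.30, so the groups overlapped, and its difference of -0.13 was 0.21 without wild-type array 1. Mrpl45, which holds the ribosome at the inner membrane, read 7.99 and 7.52 against 7.62 and 7.36, also with overlap (difference -0.26, SE 0.25, and -0.03 without wild-type array 1).

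The stalk of the large subunit, where translation factors bind, is formed by Mrpl10, Mrpl11 and Mrpl12. Mrpl12, which also binds the mitochondrial RNA polymerase, read 10.42 and 9.997 (wild type) against 9.64 and 9.59 (knockout). The difference was -0.59 (SE 0.22, unadjusted p = 0.0584 in limma), and -0.38 without wild-type array 1. Mrpl11 read 9.40 and 9.09 against 9.00 and 8.99, with both knockout arrays lower (difference -0.25, SE 0.19, and -0.09 without wild-type array 1). Mrpl10 read 9.49 and 8.97 against 9.14 and 9.07, so the groups overlapped, and its difference of -0.13 (SE 0.25) was 0.13 without wild-type array 1. The 3 stalk proteins thus shared the sign of the full comparison but not its size.

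In the small subunit, most of the named proteins of the decoding region and of the neighbouring head gave overlapping values. Mrps12, at the decoding centre, read 9.35 and 8.78 on the wild-type arrays against 9.41 and 8.64 on the knockout arrays, with 1 high and 1 low array in each genotype (difference -0.04, SE 0.38, and 0.24 without wild-type array 1). Mrps5 read 7.33 and 6.88 against 6.86 and 7.01 (difference -0.17), and Mrps7 read 9.70 and 8.99 against 9.08 and 9.02 (difference -0.30). In both genes wild-type array 1 was the high one, and without it the differences were 0.05 and 0.05. Mrps9, another protein of the head, was one of the few members with both knockout arrays higher, at 8.33 and 8.06 against 8.52 and 8.45 (difference 0.29, SE 0.18), although its next brightest probe set differed by 0.07.

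Inherited defects of mitochondrial translation are known from the human counterparts of Mrps16, Mrps22, Mrps28 and Mrps34. Mrps16 read 10.32 and 9.72 (wild type) against 9.43 and 9.47 (knockout), lower on both knockout arrays (difference -0.58, SE 0.27, and -0.28 without wild-type array 1). Mrps22 read 9.42 and 9.55 against 9.05 and 9.19, again without overlap (difference -0.37, SE 0.17, and -0.43 without wild-type array 1). Mrps28 read 8.84 and 8.94 against 8.79 and 8.94, and Mrps34 read 10.46 and 9.90 against 10.10 and 10.16. The groups overlapped in the last pair of genes, with differences of -0.02 and -0.05, or -0.07 and 0.23 without wild-type array 1.

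Mouse has 3 proteins related to bacterial S18, and they are built into different places. Mrps18c, in the small subunit, read 10.23 and 10.31 on the wild-type arrays against 9.73 and 9.89 on the knockout arrays, and differed by -0.46 (SE 0.17, unadjusted p = 0.0568 in limma). Mrps18b, also in the small subunit, read 8.98 and 8.65 against 8.69 and 8.73. Mrps18a, which carries a small subunit name but lies in the large subunit, read 9.66 and 9.32 against 9.33 and 9.26. The groups were apart in Mrps18c and overlapped in Mrps18b (difference -0.11) and Mrps18a (difference -0.20), which without wild-type array 1 were at 0.06 and -0.03. Mrps30, the other large subunit protein with a small subunit name, read 8.48 and 8.21 against 8.18 and 8.43, with overlap (difference -0.04, and 0.09 without wild-type array 1). Mrps36, now assigned to the 2-oxoglutarate dehydrogenase complex rather than the ribosome, read 8.59 and 8.37 against 8.25 and 8.28 (difference -0.22, SE 0.17, and -0.11 without wild-type array 1).

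In 6 members both knockout arrays lay above both wild-type arrays on the brightest probe set, and in 3 of these wild-type array 1 was far below the other arrays. Mrpl50, a mitochondrial addition to the large subunit, read 6.18 and 7.52 (wild type) against 8.06 and 7.76 (knockout), a difference of 1.06 (SE 0.53) that was 0.39 without wild-type array 1. Mrpl9 read 7.97 and 9.52 against 9.55 and 9.55, so that wild-type array 2 lay close to the knockout arrays (difference 0.81, SE 0.59, and 0.03 without wild-type array 1). The other tested probe sets of Mrpl9 differed by -0.10 and 0.19. Mrpl44, whose fold resembles a double-strand RNA nuclease, read 8.32 and 9.35 against 9.47 and 9.71 (difference 0.75, SE 0.42, and 0.24 without wild-type array 1). Its other tested probe sets differed by less, at -0.13, 0.07 and 0.27. Mrpl3, near the site of peptide bond formation, read 9.14 and 9.17 against 9.58 and 9.34, with close wild-type arrays (difference 0.30, SE 0.18). Mrps23 read 8.67 and 9.07 against 9.31 and 9.15 (difference 0.36, SE 0.22, and 0.16 without wild-type array 1), and Mrps9 is given above. None of the 6 passed an unadjusted p of 0.05 in limma, the smallest being 0.119 in Mrpl50.

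**Figure D2:**
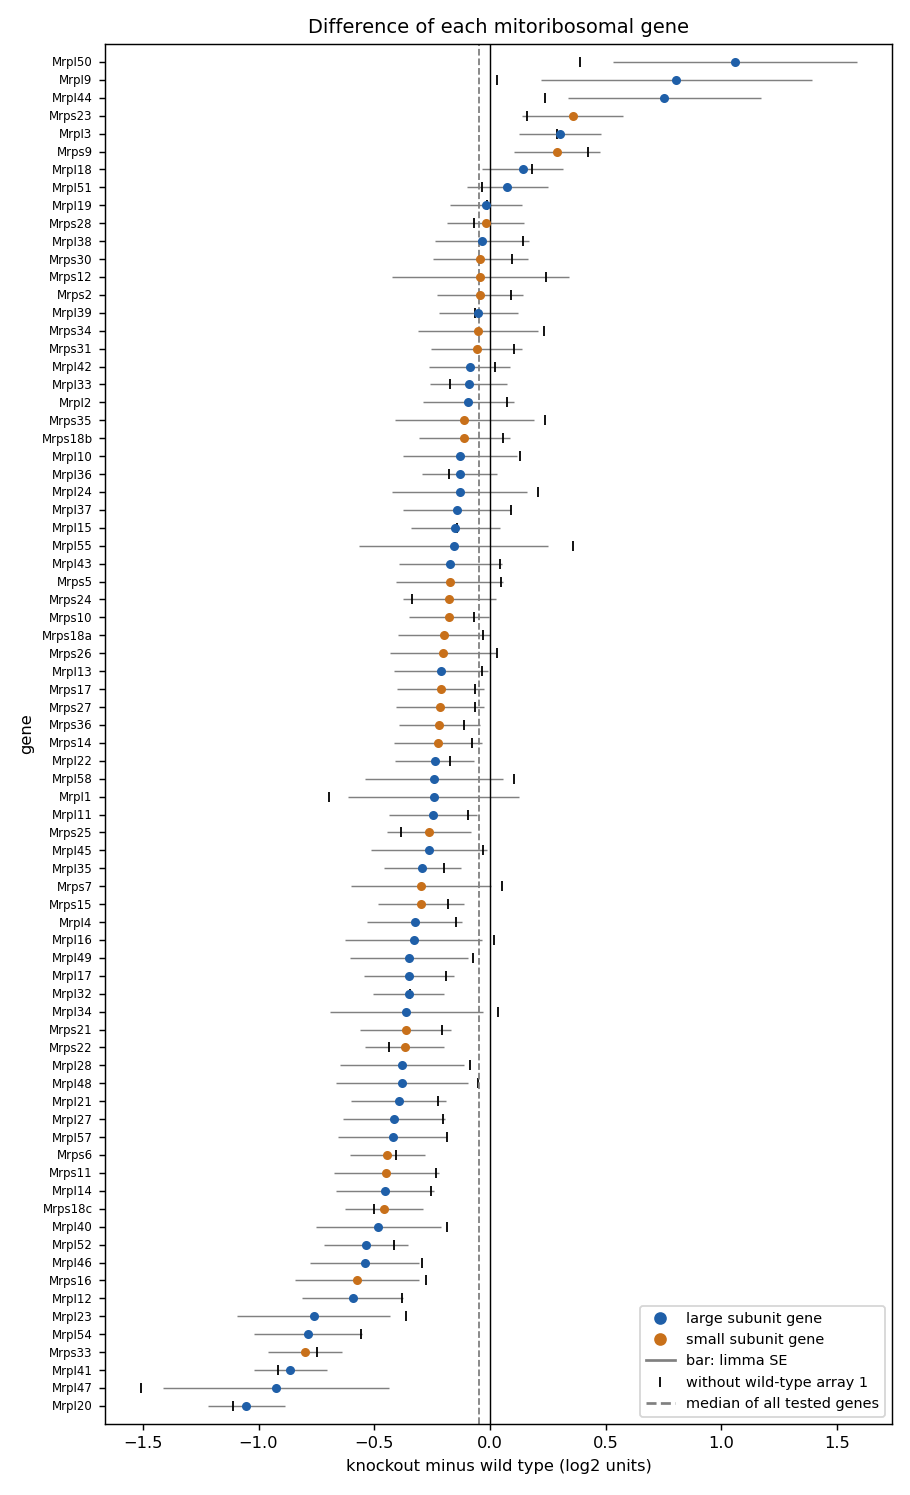
Each point is the difference, knockout minus wild type in log2 units, of 1 of the 76 mitoribosomal genes, ordered by size, with limma's standard error as a bar, for large (blue) and small (orange) subunit genes. Black ticks give the difference without wild-type array 1 and the dashed line the median of all tested genes, -0.05: most points lie left of that line, and for many genes the tick lies closer to 0 than the point.

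Large and small subunit genes had the same order over the arrays. Against each gene's own mean, large subunit genes had medians of 0.32, -0.01, -0.16 and -0.12 on wild-type arrays 1 and 2 and knockout arrays 1 and 2, and small subunit genes 0.26, -0.04, -0.12 and -0.10 in that order. Large minus small was thus 0.07 and 0.03 for wild type, against -0.04 and -0.03 for the knockout. Each gene is set against its own mean over the 4 arrays, so opposite signs in the genotypes are largely built in. The pooled SD of these array values within a genotype was 0.018, beside 0.14 for the array medians of all members. With 2 arrays per genotype it is no test of a difference between subunits. Between genotypes, 41 of 47 large subunit genes were lower, with a median of -0.25, and 27 of 29 small subunit genes, with a median of -0.20. The difference of these medians was -0.04, which is another measure than the array values above, and it was given no test. It turned to 0.03 when a gene's probe sets were averaged. Without wild-type array 1 the medians were -0.08 and -0.07. Moving Mrps18a and Mrps30 to the large subunit and leaving out Mrps36 gave -0.24 for large and -0.21 for small subunit genes. At an unadjusted p under 0.05 in limma there were 4 large (8.51%) and 1 small subunit genes (3.45%), beside 5.06% of all tested genes, counts too small to compare.

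Members with a bacterial counterpart and mitochondrial additions had similar medians. Of 47 genes with a bacterial counterpart, 43 were lower, with a median of -0.24, and of 29 without one, 25 were lower, and their median was -0.21. Without wild-type array 1 these medians were -0.09 and -0.03. The 29 without a counterpart include Mrps36.

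For 29 members more than 1 probe set was tested, and their probe sets did not always go together. All tested probe sets of the gene had the same sign in 13 of the 29. The brightest probe sets of these genes were lower in the knockout in 22 cases and higher in 7, with a median of -0.22, while the other 42 probe sets were lower in 21 and higher in 21, with a median of 0.01. The negative median therefore holds over the brightest probe sets as a set and not over the dimmer ones, whose median level was 7.52 against 9.12. The 47 members with 1 tested probe set were lower in 46 cases, with a median of -0.22, or -0.07 without wild-type array 1. Over all genes with several tested probe sets, the medians were -0.01 for the brightest and -0.02 for the others. Wild-type array 1 was the lowest of the 4 arrays on 18 of the 42 dimmer probe sets of members and the highest on 12. On the brightest probe sets of the same 29 genes it was the lowest on 7 and the highest on 15.

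Mrpl13 is an example of such disagreement. Its brightest probe set read 10.62 and 10.27 on the wild-type arrays against 10.23 and 10.23 on the knockout arrays, and another read 7.44 and 10.32 against 10.25 and 10.43. The probe sets differed mainly on wild-type array 1, and they gave differences of -0.21 (-0.03 without wild-type array 1) and 1.46. Mrpl3 was alike, with a less bright probe set at 7.10 and 8.76 against 9.14 and 8.76. In Mrpl47 and Mrpl50 the probe sets had opposite signs, each beyond 0.3. The dimmer probe set of Mrpl47 read 2.53 and 2.60 in wild type, near the floor of the arrays, and 5.001 and 4.62 in the knockout. Its difference was 2.25 (SE 0.21, unadjusted p = 0.000597, adjusted p = 0.381 in limma), beside -0.92 on the brightest probe set of the same gene. That p was the smallest of all 118 tested member probe sets. However, this probe set met the filter only through its knockout values, and its wild-type values near the floor scatter little. The p is therefore no support for a difference. The dimmer probe set of Mrpl50 differed by -0.32, beside 1.06. The positions of the probe sets in the transcripts were not used here. Mrpl13 was named after its values were seen.

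**Figure D3:**
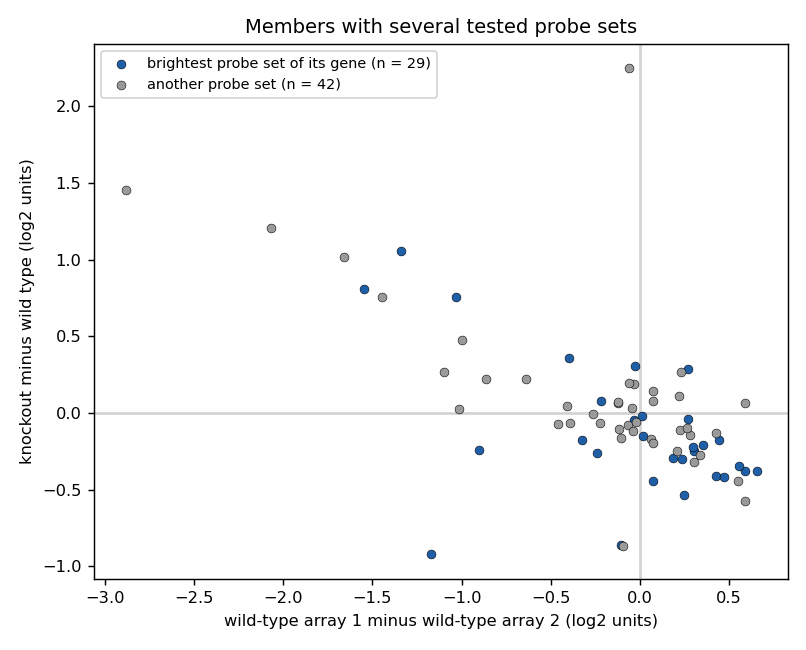
Each point is a tested probe set of the 29 members with several, placed by the difference between the wild-type arrays (x axis) and the difference between genotypes (y axis), both in log2 units, with the brightest probe set of each gene in blue and the 42 others in grey. The axes share the wild-type values, so part of the slope is built in: the points at the upper left, where wild-type array 1 is more than 1 unit below wild-type array 2, include less bright probe sets of Mrpl13 and Mrpl3 and the brightest ones of Mrpl9, Mrpl50 and Mrpl44, and the lone grey point at the top is the dimmer probe set of Mrpl47.

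Promoters were compared because many members read lower together. RefSeq promoters of the assembly GRCm38.p6, 300 bases long and reaching from before to just after the gene start, matched 67 of the 76 members, with 73 promoters. Short motifs of 3 factors known to act on nuclear genes for mitochondrial proteins were searched on both strands. These were GCATGCG for NRF1, CCGGAAG for the ETS family, to which GABP belongs, and AAGATGG for YY1. The last 3 letters of the ETS motif are the start of the YY1 motif, so 1 stretch can hold both, and the NRF1 motif can overlap its own reverse strand, as in Mrpl9. The ETS motif was in 25 member promoters (34.2%), beside 8.86% of all 32851 promoters and 17.8% of the 10642 promoters of tested genes. The NRF1 motif was in 8 (11.0%), beside 3.58% and 6.39%, and the YY1 motif in 13 (17.8%), beside 6.34% and 7.23%. At least 1 of the 3 was in 37 (50.7%), beside 17.3% and 28.1%.

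With the ETS motif the median was -0.24 over 25 genes, and without it -0.23 over 42. With the YY1 motif all 13 genes were lower, with a median of -0.21, and without it 46 of 54, with a median of -0.24. With the NRF1 motif 7 of 8 genes were lower, with a median of -0.12, and without it 52 of 59, with a median of -0.25. These are descriptions of letters in a window, not of binding.

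The promoters shown are those of the members with the largest differences in each direction, Mrpl20 and Mrpl47 (lower in the knockout) and Mrpl50 and Mrpl9 (higher), and of Mrps33 and Mrpl52, the other members at an unadjusted p under 0.05 whose promoter held a motif. The last pair was added after the values were seen. Of the other members under that p, Mrpl41 held none of the motifs and Mrpl54 had no matched promoter, so neither is shown. Capitals mark the motifs, read on either strand.
Mrpl20 (chr4:155802628-155802927, plus strand): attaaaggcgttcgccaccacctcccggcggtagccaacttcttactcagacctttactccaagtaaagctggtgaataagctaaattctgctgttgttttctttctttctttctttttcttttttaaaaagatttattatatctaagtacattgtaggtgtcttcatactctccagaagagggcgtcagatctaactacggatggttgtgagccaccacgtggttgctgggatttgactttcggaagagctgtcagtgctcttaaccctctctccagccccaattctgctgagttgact
Mrpl47 (chr3:32736706-32737005, minus strand): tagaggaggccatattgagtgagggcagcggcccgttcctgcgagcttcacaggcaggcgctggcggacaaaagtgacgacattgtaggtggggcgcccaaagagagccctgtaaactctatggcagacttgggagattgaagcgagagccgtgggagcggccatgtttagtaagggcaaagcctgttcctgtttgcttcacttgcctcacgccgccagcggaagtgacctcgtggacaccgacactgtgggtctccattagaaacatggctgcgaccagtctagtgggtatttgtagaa
Mrps33 (chr6:39810887-39811186, minus strand): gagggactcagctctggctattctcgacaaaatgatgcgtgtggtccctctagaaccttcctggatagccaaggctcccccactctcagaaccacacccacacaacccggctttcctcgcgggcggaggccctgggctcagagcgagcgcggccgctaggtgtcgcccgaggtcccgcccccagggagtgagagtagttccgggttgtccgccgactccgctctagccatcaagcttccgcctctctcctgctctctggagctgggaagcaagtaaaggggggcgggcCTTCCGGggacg
Mrpl52 (chr14:54426659-54426958, plus strand): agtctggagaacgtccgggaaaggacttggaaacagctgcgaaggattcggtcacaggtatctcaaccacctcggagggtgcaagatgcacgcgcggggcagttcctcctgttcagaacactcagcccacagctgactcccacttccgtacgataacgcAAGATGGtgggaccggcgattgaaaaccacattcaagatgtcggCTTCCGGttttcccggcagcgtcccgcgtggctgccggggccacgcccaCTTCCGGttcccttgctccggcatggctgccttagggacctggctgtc
Mrpl50 (chr4:49521034-49521333, minus strand): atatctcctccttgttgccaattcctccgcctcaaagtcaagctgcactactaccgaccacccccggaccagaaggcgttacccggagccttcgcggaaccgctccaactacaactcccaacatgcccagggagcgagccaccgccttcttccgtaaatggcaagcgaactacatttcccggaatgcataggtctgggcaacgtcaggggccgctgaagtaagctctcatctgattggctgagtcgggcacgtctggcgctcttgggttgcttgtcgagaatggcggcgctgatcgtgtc
Mrpl9 (chr3:94443086-94443385, plus strand): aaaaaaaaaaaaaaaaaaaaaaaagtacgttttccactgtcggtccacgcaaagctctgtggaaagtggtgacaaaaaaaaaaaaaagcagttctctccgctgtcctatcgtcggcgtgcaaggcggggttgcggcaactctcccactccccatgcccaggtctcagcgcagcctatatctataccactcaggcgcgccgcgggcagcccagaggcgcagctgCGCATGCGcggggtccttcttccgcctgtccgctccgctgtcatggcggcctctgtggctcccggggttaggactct
The window of Mrps33 held the ETS motif after the start, and that of Mrpl52 held it before and after the start together with the YY1 motif. In Mrpl9, which was higher in the knockout, the NRF1 motif lay on both strands in overlapping copies. Mrpl20, with the lowest difference of all members, had none of these letters in its window, nor had Mrpl47 and Mrpl50.

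The fixed lists of translation factors, tRNA synthetases, assembly genes and genes of mitochondrial DNA expression gave medians closer to 0 than the members in the full comparison. Leaving out wild-type array 1, their medians were 0.10, 0.08, -0.03 and -0.05 in this order, beside -0.07 for the members, so that the factors and synthetases were then no closer to 0. Of the ribosomal proteins with other names, Chchd1 read 10.39 and 10.92 (wild type) against 9.73 and 9.84 (knockout), lower on both arrays (difference -0.87, SE 0.25, unadjusted p = 0.0292 in limma). Dap3, a GTP-binding protein of the small subunit, differed by -0.23, Ptcd3 by -0.03 and Gadd45gip1 by 0.16, with overlap in all 3, and by 0.03, 0.04 and 0.31 without wild-type array 1. Among 12 translation factors 6 were lower, and the median was -0.02. Among them Slirp, which binds mitochondrial messenger RNA, read 10.31 and 10.72 against 9.74 and 9.86 (difference -0.72, SE 0.22), and the initiation factor Mtif3 differed by -0.54, the recycling factor Mrrf by -0.41 (-0.22 without wild-type array 1) and Mtfmt, which formylates the initiator methionine, by 0.38. At an unadjusted p under 0.05 in limma, Slirp was the 1 factor of 12 called, beside 5.06% of all tested genes, a count too small to compare. The adjusted p was at 0.794 or above for these genes.

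Mitochondrial aminoacyl-tRNA synthetases, which load tRNAs with amino acids, were lower in 9 of 18 cases, and their median was -0.03. Lars2, the leucine enzyme, read 7.21 and 7.04 on the wild-type arrays against 7.83 and 7.79 on the knockout arrays, higher on both arrays (difference 0.68, SE 0.17, unadjusted p = 0.0171 in limma). It was the 1 gene of 18 under 0.05, beside 5.06% of all tested genes, a count too small to compare. Iars2 differed by 0.78, Nars2 by 0.35 and Gatb by 0.27, and without wild-type array 1 by 0.33, 0.21 and 0.23. Genes of ribosome assembly and RNA modification had 13 of 26 lower and a median of -0.0036, with Spg7 at -0.56, Tfb1m at 0.52, Rbfa at -0.49 and Mtg1 at -0.40 and none under 0.05. In the same order these 4 were at -0.20, 0.34, -0.18 and -0.18 without wild-type array 1. Genes of mitochondrial DNA expression had 7 of 14 lower and a median of -0.02, with Ssbp1 at 0.90 but overlapping groups, Mterf1a at 0.74, Tfam at 0.28 and Supv3l1 at -0.24 and none under 0.05. Ssbp1 read 8.80 on wild-type array 1 and 11.07 on wild-type array 2, and without the former its difference turned to -0.23, with Mterf1a at 0.26, Tfam at 0.21 and Supv3l1 at -0.01. Of the regulators, 8 of 10 were higher and the median was 0.24, with Gabpa at 0.89, Yy1 at 0.67 and Sp1 at -0.43 and none under 0.05, while Nrf1, Ppargc1a and Ppargc1b were too dim to test. On wild-type array 1 Gabpa read 6.57, beside 7.85 on wild-type array 2 and 8.18 and 8.01 in the knockout. Leaving that array out, the regulators had 3 of 10 lower and a median of 0.16, with Gabpa at 0.25, Yy1 at 0.20 and Sp1 at -0.30.

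Nuclear subunits of the respiratory chain and ATP synthase resembled the mitoribosomal genes in sign and size. Of 58 measured, 47 were lower and the median was -0.29, or -0.13 without wild-type array 1, beside -0.22 and -0.07 for the members. At an unadjusted p under 0.05 in limma, 5 of the 58 were called, beside 5.06% of all tested genes, a count too small to compare. All 5 were lower, among them Ndufa12 at -1.01, Ndufa6 at -0.80, Uqcrq at -0.69 and Cox6c at -0.61. Cytosolic ribosomal proteins had 29 of 46 lower and a median of -0.10, or -0.03 without wild-type array 1. No test of the differences between these lists was made, and all of them share the same 4 arrays.

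**Figure D4:**
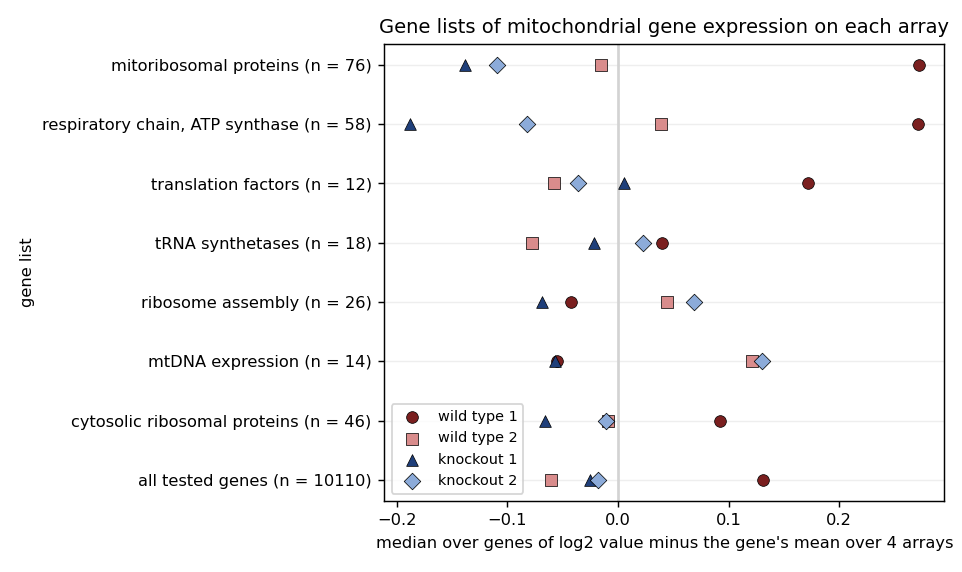
Each point is the median over the genes of a list, on 1 array, of the log2 value minus the gene's mean over the 4 arrays, with n the number of genes measured. Mitoribosomal genes and respiratory chain genes show the same order, wild-type array 1 at 0.27 highest and the knockout arrays lowest, wild-type array 2 between them. Cytosolic ribosomal proteins have that order too, with wild-type array 1 at 0.09 and wild-type array 2 and knockout array 2 both at -0.01. The translation factors, tRNA synthetases, assembly and mitochondrial DNA lists have other orders, and all tested genes were highest on wild-type array 1 too.

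Markers of other cells varied with the arrays too. Of 8 fat markers named on the array, 6 were tested and all 6 were lower in the knockout (unadjusted p from limma above 0.05 in each), with a median of -0.81. Leaving out wild-type array 1, 3 of the 6 were lower (Ucp1, Cidea and Cox8b) and the median was -0.33. Ucp1, which marks brown fat, a tissue rich in mitochondria, read 10.05 and 7.24 (wild type) against 2.80 and 5.91 (knockout), and Cidea read 9.78 and 6.78 against 3.37 and 6.06. Their order over the arrays, wild-type array 1, wild-type array 2, knockout array 2 and knockout array 1, was that of the members' medians. The other 4 had other orders, with Cox7a1, Adipoq and Fabp4 higher on knockout array 2 than on wild-type array 2 and Cox8b lowest on knockout array 2. The summed level of the fat list had another order, at 13.65 and 13.01 log2 units on the wild-type arrays against 12.49 and 13.48 on the knockout arrays, with Lep at the floor on all arrays. Alb and Apoa1, liver markers too dim to test, were at 8.86 and 6.88 on wild-type array 1. Elsewhere they were at 2.42 to 2.43 and at 2.48 to 2.51. Alas2, a blood marker, was at 9.46 on wild-type array 1 and elsewhere at 4.67 to 5.30. Over the 9 tested markers of blood, vessels, stroma, macrophages and liver, wild-type array 1 was the highest in 5 and the lowest in 2. In bulk tissue fewer cells of a type and less RNA per cell cannot be told apart, and the part of fat in the result was not tested.

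The summed level of cortex markers was 16.67 and 16.64 on the wild-type arrays against 16.59 and 16.54 on the knockout arrays, over 11 of 12 fixed genes. That of chromaffin markers was 16.09 and 15.53 against 16.05 and 15.52, over 10 of 11. The chromaffin sum thus split the arrays within each genotype rather than between them. By gene, both knockout arrays read lower in 5 of 11 cortex and 1 of 10 chromaffin markers, beside 20.5% of all tested genes. They read higher in 0 of either list, beside 17.1%. The 1 chromaffin marker was Penk, at 8.10 and 7.66 against 6.92 and 7.08 (difference -0.88, unadjusted p = 0.0209, adjusted p = 0.794 in limma). The list of blood, vessel, stroma, macrophage and liver markers summed to 12.03 and 11.05 against 10.54 and 11.06, over 11 of 12. Wild-type array 1 was again the highest in the last list. The part of these cells in the members' values was not tested.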

How the data were processed

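Transcripts of the adrenal gland were measured in 2 wild-type and 2 V1a_KO samples, 1 array each. Per the labels' protocols, RNA of integrity number 8.0 to 9.0 was labelled and hybridised to an Affymetrix mouse whole-genome expression array, and the authors processed the scans with GCRMA in Bioconductor 3.14. The deposited values are log2 expression per probe set, with the scale read from the values. GCRMA gathers dim probe sets near a floor, which compresses their differences. The deposited normalization was kept, and 64 control probe sets were left out.

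Genes were named from the platform annotation, whose gene IDs matched GRCm38.p6 for 34741 of 34945 single-gene probe sets. Of 156 member probe sets, 118 were tested and 38 were too dim. Genotypes were compared in a linear model with genotype as its sole term (limma 3.58.1, lmFit then eBayes, run under R 4.3.3) over all 17228 tested probe sets, with Benjamini-Hochberg adjustment over them. Degrees of freedom were 2 (residual) and 1.73 (prior), so the number of arrays limits the precision. Each SE is limma's. Gene lists are described by counts and medians, with no test.

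The members and lists were chosen with earlier results of these data known. Named are 20 members fixed by role, the 6 largest differences in each direction, the 6 smallest p, and members whose probe sets differ in sign beyond 0.3. The 4 smallest p of each other mitochondrial list and of the fat markers are also named. Genes of the other marker lists were named as tissue checks or for their values. Alternatives were other filters, quantile normalization, median centring, plain probe sets, a variance trend, the replicate number as a block, averaged probe sets, subunits by place, and leaving out each array. Counting each probe set was added after seeing the data. The scripts were tested on simulated data. Protein sequences were not used here.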

Additional observations from a re-analysis of the deposited data

How the results depend on the processing

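The members' median difference stayed negative under every alternative, from -0.22 to -0.15, and from -0.38 (without wild-type array 2) to -0.068 (without wild-type array 1) when each array was left out in turn. The other filters and the variance trend kept the members' probe sets and means, so their median could not change there. Centring moves all genes alike. The large subunit median ran from -0.40 to -0.084 and the small subunit median from -0.36 to -0.066 over the arrays left out. Their difference ran from -0.092 to -0.018, and turned to 0.029 with averaged probe sets and to 0.039 with each probe set counted, an alternative added after seeing the data. The count of probe sets at an adjusted p under 0.05 in limma was 0, also with any array left out, and 2 with the stricter filter, with quantile normalization, with centred arrays and with plain probe sets, of which 0 were members' chosen probe sets. The count at an unadjusted p under 0.05 in limma was 885, 1545 with no filter, and 169 (without knockout array 1) to 6507 (without wild-type array 2) with an array left out, with 2062 without wild-type array 1 and 205 without knockout array 2. A lone array was assumed to vary like the other genotype. With the replicate number as a block, the members' median was -0.22 by construction. Of the 17228 tested probe sets, 684 passed the unadjusted threshold and 0 the adjusted one. The unadjusted one was passed by 4 members (5.26%, beside 3.71% of all tested genes). With 2 pairs and a correlation of 0.154 between deviations of same-numbered arrays, the numbers do not establish a pairing. Among named members, Mrpl9 turned to -0.10 with plain probe sets, and Mrps28 to 0.0052 with quantile normalization and 0.0060 with centred arrays. With an array left out, differences ran from -0.39 to 0.13 for Mrpl10, -0.47 to 0.21 for Mrpl24, -0.43 to 0.34 for Mrps12, -0.28 to 0.056 for Mrps18b, -0.092 to 0.057 for Mrps28, -0.18 to 0.095 for Mrps30, -0.33 to 0.23 for Mrps34, -0.40 to 0.048 for Mrps5 and -0.65 to 0.054 for Mrps7. The cause was not tested. With 2 arrays per genotype, limma's SE of a member was 0.15 or more and rests on few degrees of freedom. The error of a difference can exceed its SE, which may reflect only technical scatter. Probe sets near the floor of 2.304 carry little signal over background.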
